A study of Mus musculus with 33 samples.

Results

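Transcripts of 8 genes that set serine protease activity at the surface of epithelial cells were followed across mouse mammary RNA-seq libraries. They are the inhibitors Spint1 and Spint2, the membrane proteases St14, Prss8, Tmprss2 and Tmprss4, the tryptase family protease Prss22 and the secreted protease Klk10. They were taken by symbol from the 4 deposited expression tables, which hold 30168 symbols between them, and all 8 were present in each table. In the organoid and tumor tables all 8 passed the filter on low values. In both tables of cultured cells 7 passed, and Tmprss2, with 0 to 2 reads a library, did not.

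Serine proteases of the epithelial surface are made as inactive precursors and are switched on by cleavage, often by one another. Matriptase, the product of St14, and prostasin, the product of Prss8, form such a pair. Both are held in check by the Kunitz-type inhibitors HAI-1 and HAI-2, the products of Spint1 and Spint2. The pair is known for its part in tight junction assembly, sodium channel processing and activation of pro-hepatocyte growth factor, and excess matriptase over its inhibitor drives tumors in mouse skin.

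Expression was measured in 33 libraries. HC11 cells, an established line of mouse mammary epithelium, had trichostatin A (TSA, which blocks histone deacetylases) at 300 nM for 24 h, or DMSO, with 3 libraries each. In another experiment they carried a CRISPR guide to Trps1 (sgTrps1 #1) or a scrambled control (sgScr #1), with 1 guide and 2 libraries an arm. Primary mammary organoids grown in Matrigel had received adenoviral Cre and were harvested after 14 or 28 days. Each day had 2 libraries of each of 3 genotypes, namely Cdh1F/F;Trps1F/F, Cdh1+/F;Trps1F/F and Cdh1F/F;Trps1+/+, the last called Trps1+/+ here. Mammary tumors came from mice with Cre under the WAP promoter, which is active in milk-producing epithelium, and floxed Cdh1 throughout: 8 tumors of 6 mice were Trps1F/F and 3 tumors of 3 mice were Trps1+/+. Every organoid and tumor group thus carried at least 1 floxed Cdh1 allele. The labels put the Trps1F/F tumors into subgroup 1 (4 tumors, 3 mice), subgroup 2 (2 tumors, 2 mice) and subgroup 3 (2 tumors, 2 mice). Replicates 4, 5 and 6 came from 1 mouse, with replicates 4 and 5 in subgroup 1 and replicate 6 in subgroup 3. The sources used here do not say how the subgroups were made, so contrasts of subgroups are descriptions if expression defined them. Nothing in the labels says that libraries of a group were separate cultures, so p-values in cells and organoids rest on a spread that may be technical.

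Libraries held 14858175 to 38773075 reads. Trps1, the gene of a repressor that binds GATA sites, checked the labels in part. On the log2 scale it was 11.33 and 11.14 on average in Cdh1F/F Trps1F/F organoids at days 14 and 28, 9.74 and 9.75 in Cdh1+/F Trps1F/F, and 13.55 and 13.79 in Trps1+/+. In sgTrps1 cells it was 13.85 and 13.91, against 13.79 and 13.89 in sgScr cells, so its mRNA gave no check of the guide, which can change a protein without changing its mRNA. Among luminal epithelial markers, Cldn7 had 0 reads in 5 of 6 libraries of the TSA experiment and Krt18 in 3 of 4 libraries of the guide experiment. In tumors Trps1 ranged from 9.90 to 12.63 in Trps1F/F, against 11.46 to 12.94 in Trps1+/+. Cdh1, the E-cadherin gene, averaged 13.59 and 13.88 in Cdh1F/F Trps1F/F organoids at days 14 and 28, 13.51 and 13.10 in Cdh1+/F Trps1F/F, and 13.08 and 13.47 in Trps1+/+, so its summed reads did not mark the floxed allele. All 12 luminal markers had reads in every organoid library.

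The members lie on 5 chromosomes (GRCm38): Spint1 at chr2:119237362-119249527 on the plus strand, Spint2 at chr7:29256323-29281912 (minus), St14 at chr9:31089402-31131853 (minus), Prss8 at chr7:127925716-127930104 (minus), Prss22 at chr17:23993534-23998100 (minus), Tmprss2 at chr16:97564682-97611195 (minus), Tmprss4 at chr9:45172726-45204092 (minus) and Klk10 at chr7:43781035-43785410 (plus). Exons of Prss8 share 122 bp, 6.59% of their length, with Kat8 on the other strand. Exons of Tmprss4 share 412 bp, 15.9%, with an antisense transcript, Gm17099. Strand use in counting is not stated, so reads of these stretches could belong to either partner.

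Promoter sequences are shown for both inhibitors, because one holds a repeated motif that the other lacks. Each run is the 250 bases before the RefSeq start (GRCm38.p6), 5′ to 3′ on the gene's strand, from chr7:29281978-29282227 (minus) and chr2:119237110-119237359 (plus). Capitals mark CAGGTG, the E-box that repressors of the ZEB and SNAI families are known to bind.
Spint2: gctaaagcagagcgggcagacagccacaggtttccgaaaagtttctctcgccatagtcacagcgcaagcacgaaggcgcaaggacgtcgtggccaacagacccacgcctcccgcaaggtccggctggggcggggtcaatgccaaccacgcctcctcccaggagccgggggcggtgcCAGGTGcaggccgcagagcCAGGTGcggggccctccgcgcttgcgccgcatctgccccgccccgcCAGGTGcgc
Spint1: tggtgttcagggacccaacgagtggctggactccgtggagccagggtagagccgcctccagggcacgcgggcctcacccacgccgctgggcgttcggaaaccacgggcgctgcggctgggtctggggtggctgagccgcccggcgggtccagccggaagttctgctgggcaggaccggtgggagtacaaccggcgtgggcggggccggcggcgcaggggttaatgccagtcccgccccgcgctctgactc
The Spint2 run holds 3 copies of CAGGTG, at positions -74 to -69, -55 to -50 and -9 to -4 from the start. At least 1 match on either strand is found in 20.2% of 32851 mouse promoters of 300 bases, and at least 3 in 0.365%. The Spint1 run holds none, nor do those of Tmprss2 and Klk10, the other members with a promoter in the RefSeq table. None of the 4 holds a GATA site (AGATAA, its variant AGATAG, the related TGATAA or its own variant TGATAG, which 29.8% of promoters hold on either strand) or the grainyhead site AACCNGTT (2.09%), on either strand of the 300 bases. A match is a run of letters and was not tested for binding.

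Levels are compared between genes only after dividing normalized counts by exon length, taken as the joined length of all annotated exons of a gene. It was 7637 bp for St14 and 2767 bp for Spint1. Which transcripts were present was not determined, so the order of genes depends on this length even where ranges do not overlap. In Trps1+/+ organoids at day 28, normalized counts per kilobase were 1852 for Spint2, 1146 for Spint1, 894 for St14 and 738 for Prss8. These 4 led the members, and no ranges of neighbours overlapped. Tmprss4 (289), Klk10 (132), Tmprss2 (85.7) and Prss22 (31.8) followed, with the ranges of Klk10 (92.9 to 171) and Tmprss2 (78.6 to 92.7) nearly touching. In DMSO-treated HC11 cells Spint2 (617), St14 (555) and Spint1 (447) led, and the ranges of Spint2 (608 to 622) and St14 (517 to 587) did not overlap. Klk10 (327) came next, while Tmprss4 was at 10.8 and Tmprss2 at 0.0511.

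TSA was compared with DMSO in HC11 cells. The inhibitors and the matriptase-prostasin pair fell, Klk10 fell most, and Prss22 and Tmprss4 rose. Of 7 members tested, 2 rose and 5 fell at an adjusted p under 0.05 (limma, Benjamini-Hochberg over 13035 genes). Of all genes tested, 43.6% rose and 41.6% fell, so that a call alone says little here. The median log2 difference of the 7 was -0.66, against 0.02 over all genes. Cell type markers moved too: normalized counts of 7 basal markers summed to 26438 to 27456 in TSA, against 88075 to 99274 in DMSO, those of 8 fibroblast markers to 896 to 987, against 5477 to 5795, and those of 12 luminal markers to 21408 to 22192, against 25248 to 25839. Gene by gene these lists were mixed. Of 7 basal markers tested 2 rose and 5 fell, of 5 fibroblast markers 2 rose and 3 fell, and of 10 luminal markers 5 rose and 5 fell. The part of these markers in the values of the members was not tested.

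Spint1, in log2(normalized count + 1), stood at 9.47, 9.52 and 9.65 in TSA, against 10.30, 10.35 and 10.16 in DMSO. Its log2 difference was -0.73 (SE 0.0635, limma adjusted p = 4.18e-07). Spint2 was at 11.06, 11.06 and 11.04 in TSA, against 11.47, 11.47 and 11.44 in DMSO, a fall of 0.41 in size (log2 difference -0.41, SE 0.0348, adjusted p = 3.57e-07). For both inhibitors every TSA library lay below every DMSO library. St14 stood at 11.39, 11.34 and 11.43 in TSA, against 11.95, 12.13 and 12.06 in DMSO (log2 difference -0.66, SE 0.0481, adjusted p = 7.77e-08). Prss8 stood at 7.16, 6.98 and 7.04 in TSA, against 8.20, 8.22 and 7.96 in DMSO (-1.07, SE 0.105, adjusted p = 1.20e-06). Inhibitors and proteases of the pair thus fell together, with Spint2 by the smallest step and Prss8 by the largest.

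Klk10, a kallikrein-related peptidase whose loss is known from human breast tumors, stood at 6.05, 6.34 and 6.55 in TSA, against 8.76, 8.84 and 8.84 in DMSO (log2 difference -2.50, SE 0.123, adjusted p = 2.12e-09). Prss22, a tryptase family protease of airway and other epithelia, went the other way, at 7.95, 7.77 and 7.90 in TSA, against 5.46, 5.58 and 5.45 in DMSO (2.37, SE 0.120, adjusted p = 2.60e-09). Tmprss4, a membrane protease known from human carcinomas, stood at 6.48, 6.39 and 6.66 in TSA, against 4.73, 5.33 and 4.30 in DMSO (1.72, SE 0.237, adjusted p = 2.67e-05). In none of these genes did the groups overlap, although Tmprss4 rested on 18 to 110 reads a library. How many of all genes had no overlap was not counted. Tmprss2 had 2, 1 and 1 reads in TSA and 0, 1 and 0 in DMSO, all under the floor of 3 reads, so no fold is given. All 7 calls were also made without each library in turn.

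Of 35 other epithelial serine proteases, 13 were tested, of which 10 rose and 2 fell in TSA (median log2 difference 0.94, against 0.02 over all genes). Plat, the tissue plasminogen activator gene, was higher by 6.60 on the log2 scale (adjusted p = 4.77e-14), and Prss23 fell by 1.89 (adjusted p = 2.36e-11). Of 12 tested inhibitors outside the members 5 rose and 5 fell, among them Spink5, which encodes an inhibitor of kallikreins (-2.48, adjusted p = 4.04e-13). Of 14 tested substrates, receptors and partners 6 rose and 5 fell, and the matriptase substrate Cdcp1 stood at -1.67 (adjusted p = 1.05e-11).

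**Figure D1:**
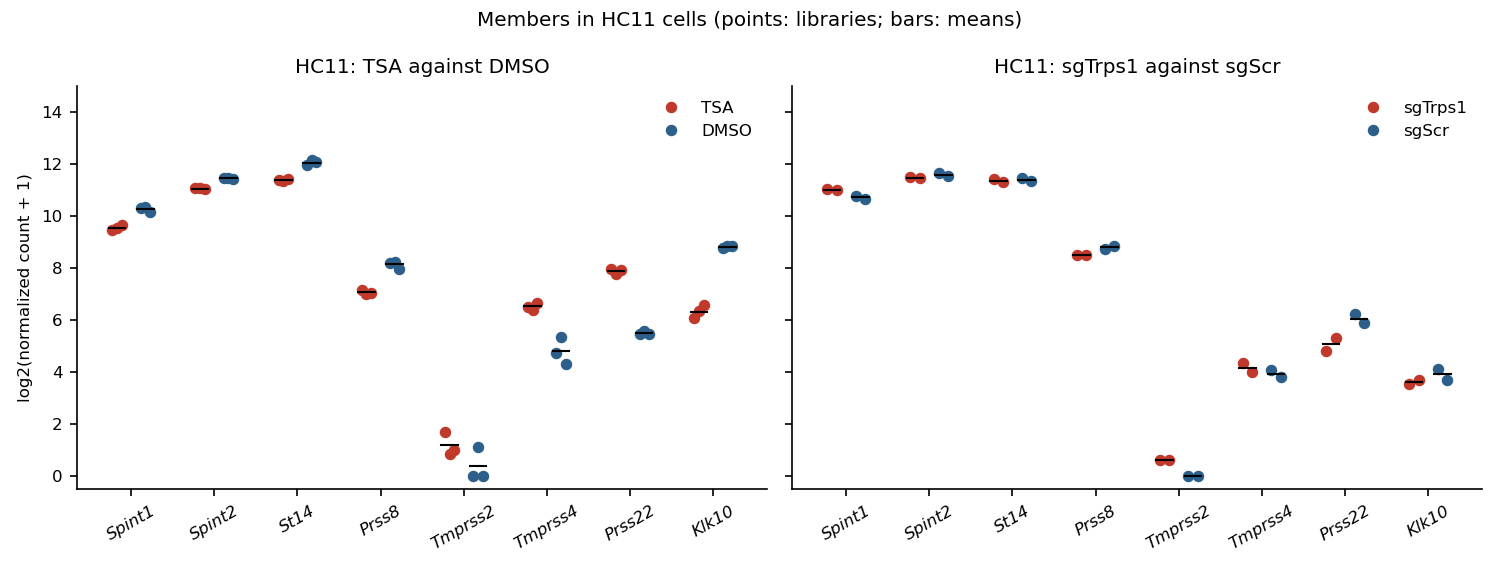
Log2(normalized count + 1) of the 8 members in HC11 libraries: TSA (red) and DMSO (blue) on the left, sgTrps1 (red) and sgScr (blue) on the right, with points for libraries and bars for means. Each panel was normalized on its own; Prss22 and Tmprss4 are higher and Klk10 lower in TSA, while the guides differ by less than 1 log2 unit in every member.

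sgTrps1 cells were compared with sgScr cells. Spint1 rose by a small step, and Prss8 and Prss22 fell, while Spint2, St14, Tmprss4 and Klk10 did not pass. Of 7 members tested, 1 rose and 2 fell, in a comparison that called 34.6% of 12552 genes higher and 32.4% lower. The median log2 difference of the 7 was -0.11, against 0.02 over all genes. In the same comparison normalized counts of 7 basal markers summed to 72541 to 73197 in sgTrps1, against 20241 to 23157 in sgScr, those of 5 squamous markers to 1702 to 1765, against 404 to 505, and those of 11 luminal markers to 18310 to 18570, against 19638 to 20199. Gene by gene, 3 of 5 basal markers tested rose and 1 fell, 2 of 3 squamous markers rose and 0 fell, and 3 of 8 luminal markers rose and 4 fell. The part of these shifts in the values of the members was not tested.

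Spint1 stood at 11.02 and 10.99 in sgTrps1, against 10.76 and 10.66 in sgScr (log2 difference 0.30, SE 0.0599, limma adjusted p = 0.000562). Prss8 stood at 8.48 and 8.49 in sgTrps1, against 8.72 and 8.85 in sgScr (-0.30, SE 0.0807, adjusted p = 0.00469). Prss22 stood at 4.80 and 5.29 in sgTrps1, against 6.23 and 5.86 in sgScr (-0.99, SE 0.211, adjusted p = 0.000875). Groups did not overlap in these 3 genes, but nor did they in Spint2 and Klk10, which were not called. The share of all genes without overlap was not taken. The 3 calls were also made without each library in turn. Prss22 fell here and rose in TSA. Trps1 mRNA was lower in TSA (10.97, 10.90 and 10.91, against 14.02, 13.96 and 13.94 in DMSO), while its groups overlapped between the guides.

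Spint2 stood at 11.48 and 11.47 in sgTrps1, against 11.63 and 11.54 in sgScr. Its difference of -0.11 did not pass (95% interval -0.24 to 0.01, adjusted p = 0.106), but passed without sgScr replicate 2 (-0.16, adjusted p = 0.00718) and after a shift of the libraries to a common median (-0.16, adjusted p = 0.0162). St14 stood at 11.41 and 11.30 in sgTrps1, against 11.45 and 11.35 in sgScr, with overlapping groups and an interval of -0.18 to 0.09. Klk10 had 20 and 23 reads in sgTrps1, against 25 and 13 in sgScr, and Tmprss4 36 and 29, against 24 and 14. Tmprss2 had 1 read in each sgTrps1 library and 0 in each sgScr library, which allows up to 3. With 1 guide an arm, the guide and other differences between the cell populations cannot be told apart.

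Of 13 other epithelial serine proteases tested, 9 rose and 4 fell in sgTrps1 (median 0.71, against 0.02 over all genes), with Tmprss11b at 4.14 (adjusted p = 5.74e-08) and Htra1 at -1.07 (adjusted p = 6.11e-09). Of 12 tested substrates and partners 5 rose and 6 fell. Epcam, a cell adhesion protein that matriptase can cleave, fell by 1.40 (adjusted p = 6.87e-10). Of 11 other inhibitors 6 rose and 4 fell, with Serpine2 at -3.24 (adjusted p = 3.05e-13).

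The effect of floxed Trps1 was read between Cdh1F/F Trps1F/F and Trps1+/+ organoids, which carry the same floxed Cdh1. At day 14 both inhibitors and St14, Prss8 and Tmprss2 rose and Klk10 fell. Of 8 members, 5 rose and 1 fell, against 14.5% of 15860 genes higher and 17.9% lower. The median log2 difference of the 8 was 0.60, against -0.01 over all genes.

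At day 14 Spint1 stood at 12.19 and 12.03 in Cdh1F/F Trps1F/F, against 11.36 and 11.32 in Trps1+/+ (log2 difference 0.77, SE 0.0733, limma adjusted p = 6.49e-06). Spint2 stood at 13 and 12.93, against 12.44 and 12.65 in Trps1+/+ (0.42, SE 0.0892, adjusted p = 0.00289). Both inhibitors were higher in each Cdh1F/F Trps1F/F library than in each Trps1+/+ library. St14 stood at 13.38 and 13.25, against 12.39 and 12.55 in Trps1+/+ (0.85, SE 0.0894, adjusted p = 1.39e-05). Prss8 stood at 10.77 and 10.70, against 9.73 and 9.94 in Trps1+/+ (0.89, SE 0.0885, adjusted p = 8.63e-06). Tmprss2, an androgen-responsive protease in prostate, stood at 9.75 and 9.76, against 8.62 and 8.95 in Trps1+/+ (0.97, SE 0.118, adjusted p = 4.38e-05). Estimated rises in these proteases exceeded those in the inhibitors, but their sizes were not tested against each other. None of the groups overlapped, but the share of all genes without overlap was not taken.

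Klk10 stood at 8.28 and 8.56 at day 14, against 9.28 and 10.08 in Trps1+/+ (log2 difference -1.26, SE 0.334, limma adjusted p = 0.0111). That call was lost without Trps1+/+ replicate b (-0.86, adjusted p = 0.124) or Cdh1F/F Trps1F/F replicate 1 (-1.12, adjusted p = 0.0902). Tmprss4 did not pass (8.91 and 8.94, against 9.22 and 9.27 in Trps1+/+, difference -0.32, 95% interval -0.65 to 0.01). Prss22 had 19 and 11 reads, against 14 and 23 in Trps1+/+, with overlapping groups.

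At day 28 the same comparison gave smaller rises and more falls. Of 8 members 3 rose and 2 fell, against 19.9% of genes higher and 23.4% lower. Spint1 stood at 12 and 11.92, against 11.65 and 11.61 in Trps1+/+ (log2 difference 0.33, SE 0.0733, adjusted p = 0.00321). St14 stood at 13.10 and 12.93, against 12.81 and 12.66 in Trps1+/+ (0.28, SE 0.0894, adjusted p = 0.0220), and Tmprss2 at 9.73 and 9.85, against 9.41 and 9.17 (0.50, SE 0.118, adjusted p = 0.00422). Tmprss4 fell, at 8.40 and 9.02, against 9.52 and 9.58 in Trps1+/+ (-0.84, SE 0.154, adjusted p = 0.000753). Prss22 fell on 19 and 14 reads, against 70 and 42 (-1.13, adjusted p = 0.0325).

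The inhibitor Spint2 (12.89 and 12.87, against 12.94 and 13.14 in Trps1+/+, difference -0.16, interval -0.35 to 0.04), Prss8 (0.15, interval -0.05 to 0.34) and Klk10 (-0.86, adjusted p = 0.0531) did not pass at day 28. The calls of Spint1 and Tmprss4 were also made without each library in turn. St14 was lost without Trps1+/+ day 28 replicate b (0.21, adjusted p = 0.160) or Cdh1F/F Trps1F/F day 28 replicate 1 (0.19, adjusted p = 0.152). Tmprss2 was lost without that Trps1+/+ replicate (0.38, adjusted p = 0.0500015), Prss22 without any 1 of the 4 libraries (adjusted p 0.0657 to 0.160), and St14 and Prss22 after quantile normalization (adjusted p 0.0863 and 0.216). Klk10 was called without Trps1+/+ replicate b (-1.30, adjusted p = 0.0133) or Cdh1F/F Trps1F/F replicate 1 (-1.14, adjusted p = 0.0364), and after a shift of the libraries to a common median (-0.87, adjusted p = 0.0492).

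Markers of other cell types moved with this comparison. Normalized counts of 8 fibroblast markers summed to 21074 to 21660 at day 14 in Cdh1F/F Trps1F/F, against 89117 to 96596 in Trps1+/+, and to 8099 to 9252 at day 28, against 25352 to 38739. Those of 12 luminal markers summed to 105531 to 108169 at day 14, against 61001 to 71616 in Trps1+/+, and to 105909 to 106825 at day 28, against 65343 to 69327. In bulk RNA, fewer cells of a type and less RNA per cell cannot be told apart, and the part of this shift in the values of the members was not tested.

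More substrates and partners of the proteases rose than fell in Cdh1F/F Trps1F/F organoids. Their list shares Epcam and Cldn7 with the luminal markers, which also rose in sum. Of 15 tested, 8 rose and 1 fell on each day, with median log2 differences of 0.66 at day 14 and 0.34 at day 28, against -0.01 and -0.04 over all genes. F2rl1, the gene of the protease-activated receptor PAR2, was higher by 1.22 at day 14 (adjusted p = 4.11e-07) and 0.91 at day 28 (adjusted p = 2.77e-06). Sdc1 (1.21 at day 14) and Epcam (1.00 at day 14 and 0.97 at day 28) also rose. Other inhibitors went mostly down: 9 of 15 fell and 2 rose at day 14, and 8 fell and 4 rose at day 28. Among them Wfdc2, which encodes a whey acidic protein domain inhibitor, rose by 2.05 at day 14 and 1.37 at day 28. Of 17 other proteases 6 fell and 3 rose at day 14, and 8 fell and 1 rose at day 28, and the kallikrein gene Klk6 was higher on both days (3.01 and 2.30).

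**Figure D2:**
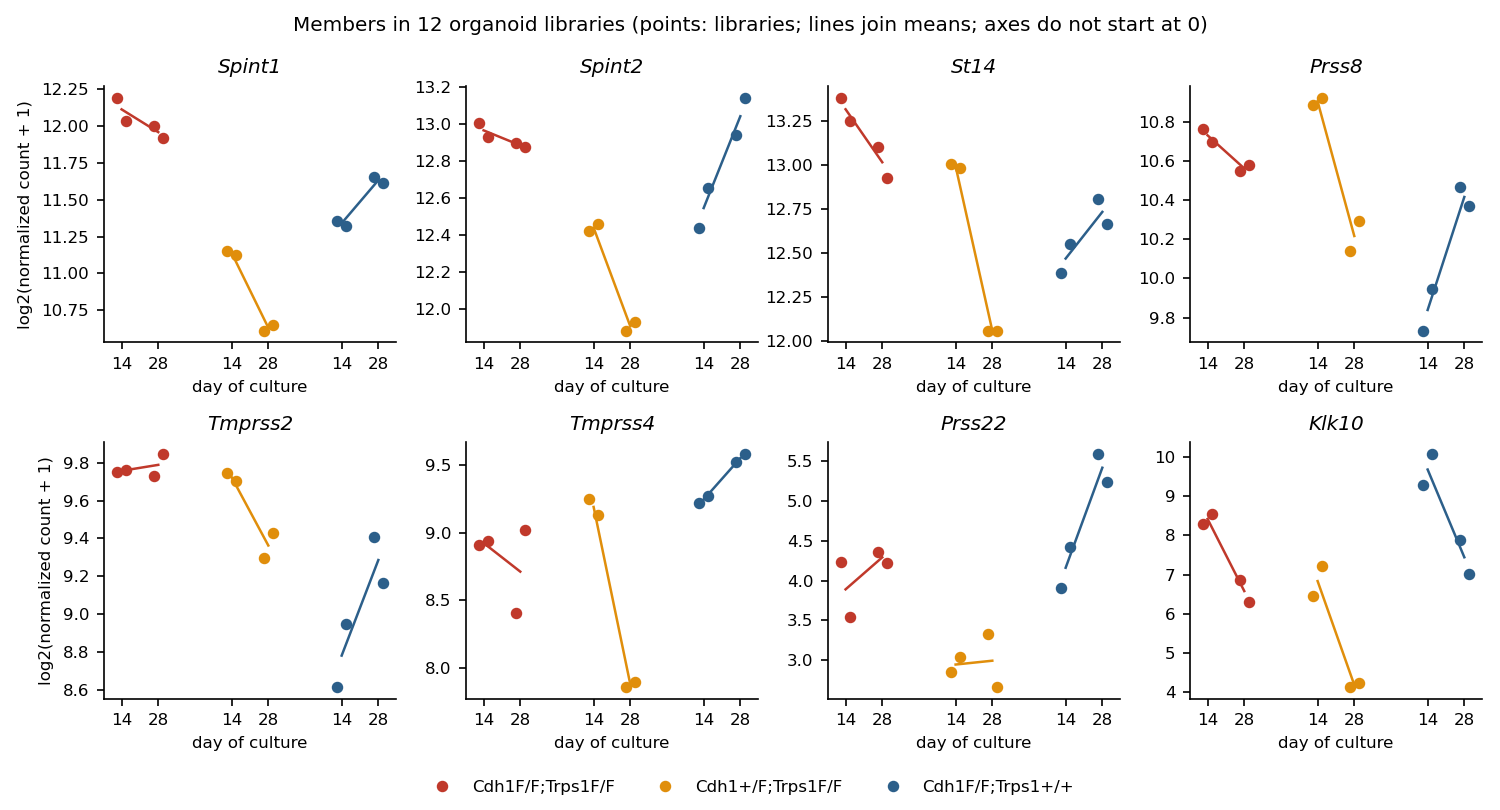
Log2(normalized count + 1) of the 8 members at day 14 and day 28 in Cdh1F/F;Trps1F/F (red), Cdh1+/F;Trps1F/F (orange) and Cdh1F/F;Trps1+/+ (blue) organoids, with points for the 2 libraries of a group and lines joining group means. Lines of Spint1, Spint2, St14, Prss8 and Tmprss2 rise with time in Cdh1F/F;Trps1+/+ and fall in Cdh1+/F;Trps1F/F, and those of Klk10 fall in every genotype.

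Cdh1+/F Trps1F/F organoids were set against Trps1+/+ organoids, from which they differ at both floxed genes. At day 14, 3 members rose (St14, Prss8 and Tmprss2) and 3 fell (Spint1, Prss22 and Klk10), against 18.9% of genes higher and 17.4% lower. St14 stood at 13.01 and 12.98, against 12.39 and 12.55 in Trps1+/+ (log2 difference 0.52, SE 0.0894, adjusted p = 0.000534). Prss8 stood at 10.89 and 10.93, against 9.73 and 9.94 (1.07, SE 0.0885, adjusted p = 1.16e-06), and Tmprss2 at 9.75 and 9.70, against 8.62 and 8.95 (0.94, SE 0.118, adjusted p = 4.54e-05). The inhibitors did not rise with them. Spint1 stood at 11.15 and 11.13, against 11.36 and 11.32 (-0.20, SE 0.0733, adjusted p = 0.0482), and Spint2 at 12.42 and 12.46, against 12.44 and 12.65 (-0.11, interval -0.30 to 0.09). Klk10 fell by 2.85 (SE 0.334, adjusted p = 2.51e-05).

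The call of Spint1 was lost without any 1 of the 4 libraries of that contrast (adjusted p 0.0887 to 0.179). That of Prss22, which rested on 6 and 6 reads against 14 and 23, was lost without Trps1+/+ replicate b or either Cdh1+/F Trps1F/F replicate (adjusted p 0.0703 to 0.156). Both were lost without the filter on low values and with voom on the recovered reads (adjusted p 0.0514 to 0.0665).

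At day 28, 0 members rose and 6 fell in Cdh1+/F Trps1F/F, against 28.6% of genes higher and 24.7% lower. The share of higher among called genes was 53.7%, and 41.8% after quantile normalization. Spint1 stood at 10.61 and 10.65, against 11.65 and 11.61 in Trps1+/+ (log2 difference -1.0, SE 0.0733, adjusted p = 1.87e-07). Spint2 stood at 11.88 and 11.93, against 12.94 and 13.14 (-1.14, SE 0.0892, adjusted p = 3.36e-07), and St14 at 12.06 and 12.06, against 12.81 and 12.66 (-0.67, SE 0.0894, adjusted p = 3.78e-05). Tmprss4 fell by 1.67, Prss22 by 2.43 and Klk10 by 3.26 (adjusted p = 1.39e-06, 0.000183 and 3.80e-06). All 6 calls were also made without each library in turn. Prss8 (-0.20, adjusted p = 0.0746) and Tmprss2 (0.08, interval -0.18 to 0.33) did not pass, and Prss8 passed after quantile normalization (-0.23, adjusted p = 0.0426) or a shift to a common median (-0.25, adjusted p = 0.0339).

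Cdh1+/F Trps1F/F organoids had the highest fibroblast and muscle marker sums. Their fibroblast marker sums were 650042 to 737264 at day 14 and 353865 to 423260 at day 28. Skeletal muscle markers summed to 8457 to 8939 at day 14 and 21188 to 27874 at day 28, against 4744 to 6474 and 3147 to 4463 in Trps1+/+. Luminal markers summed to 72974 to 75882 at day 14 and 38809 to 44022 at day 28. The part of these shifts in the values of the members was not tested.

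Within Trps1F/F organoids, Cdh1F/F was compared with Cdh1+/F. Trps1 mRNA also differed here. It was higher in Cdh1F/F by 1.58 at day 14 and 1.40 at day 28 on the log2 scale (limma adjusted p = 1.51e-05 and 2.39e-05). At day 14, 4 members rose and 0 fell, against 19% of genes higher and 21.6% lower. At day 28 all 8 rose, against 27.7% higher and 29% lower. Among called genes the share of higher was 46.8% at day 14 and 48.9% at day 28, and 57.7% and 61.8% after quantile normalization. The median log2 difference of the 8 members was 0.43 at day 14 and 0.97 at day 28, against 0.01 and 0.02 over all genes.

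Spint1 stood at 12.19 and 12.03 in Cdh1F/F at day 14, against 11.15 and 11.13 in Cdh1+/F (log2 difference 0.97, SE 0.0733, adjusted p = 3.38e-07). At day 28 it stood at 12 and 11.92, against 10.61 and 10.65 (1.32, SE 0.0733, adjusted p = 7.33e-09). Spint2 differed by 0.53 at day 14 and 0.98 at day 28 (SE 0.0892, adjusted p = 0.000385 and 8.16e-07), and Klk10 by 1.59 and 2.40 (SE 0.334, adjusted p = 0.00199 and 4.28e-05). Both inhibitors and Klk10 were thus higher in each Cdh1F/F library on both days, also without each library in turn.

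Of the other members St14 alone was called on both days. St14 was higher by 0.32 at day 14 (adjusted p = 0.0110) and by 0.96 at day 28 (adjusted p = 1.04e-06), where it stood at 13.10 and 12.93 in Cdh1F/F, against 12.06 and 12.06 in Cdh1+/F. The day 14 call of St14 was lost without Cdh1+/F replicate b (0.31, adjusted p = 0.0569) or Cdh1F/F replicate 1 (0.26, adjusted p = 0.109). Tmprss4 stood at 8.91 and 8.94 at day 14, against 9.25 and 9.13 in Cdh1+/F (-0.27, adjusted p = 0.189), and at 8.40 and 9.02 at day 28, against 7.86 and 7.90 (0.83, SE 0.154, adjusted p = 0.000451). Prss8 (-0.17, adjusted p = 0.137) and Tmprss2 (0.03, adjusted p = 0.850) did not pass at day 14 and rose by 0.35 and 0.43 at day 28 (adjusted p = 0.00474 and 0.00788). Prss22 rose by 1.30 at day 28 (adjusted p = 0.0120).

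The day 28 call of Prss8 was lost without Cdh1+/F replicate a (0.27, adjusted p = 0.0556). That of Tmprss2 was lost without Cdh1+/F replicate a (0.36, adjusted p = 0.0644) or Cdh1F/F replicate 2 (0.37, adjusted p = 0.0522), and that of Prss22 without Cdh1+/F replicate b (0.97, adjusted p = 0.0983) or Cdh1F/F replicate 1 (1.23, adjusted p = 0.0501). At day 14 Prss22 (0.95, adjusted p = 0.0693) passed after quantile normalization (1.78, adjusted p = 0.00291). At day 14, 10 of 12 luminal markers were called higher and all 8 fibroblast markers lower (median log2 differences 0.52 and -5.14). All 12 luminal markers were called higher at day 28 and all 8 fibroblast markers lower (1.24 and -7.03). Plau, the urokinase gene, stood at -2.89 at day 28 (adjusted p = 7.14e-10). The part of these markers and of the Trps1 difference in the values of the members was not tested.

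**Figure D3:**
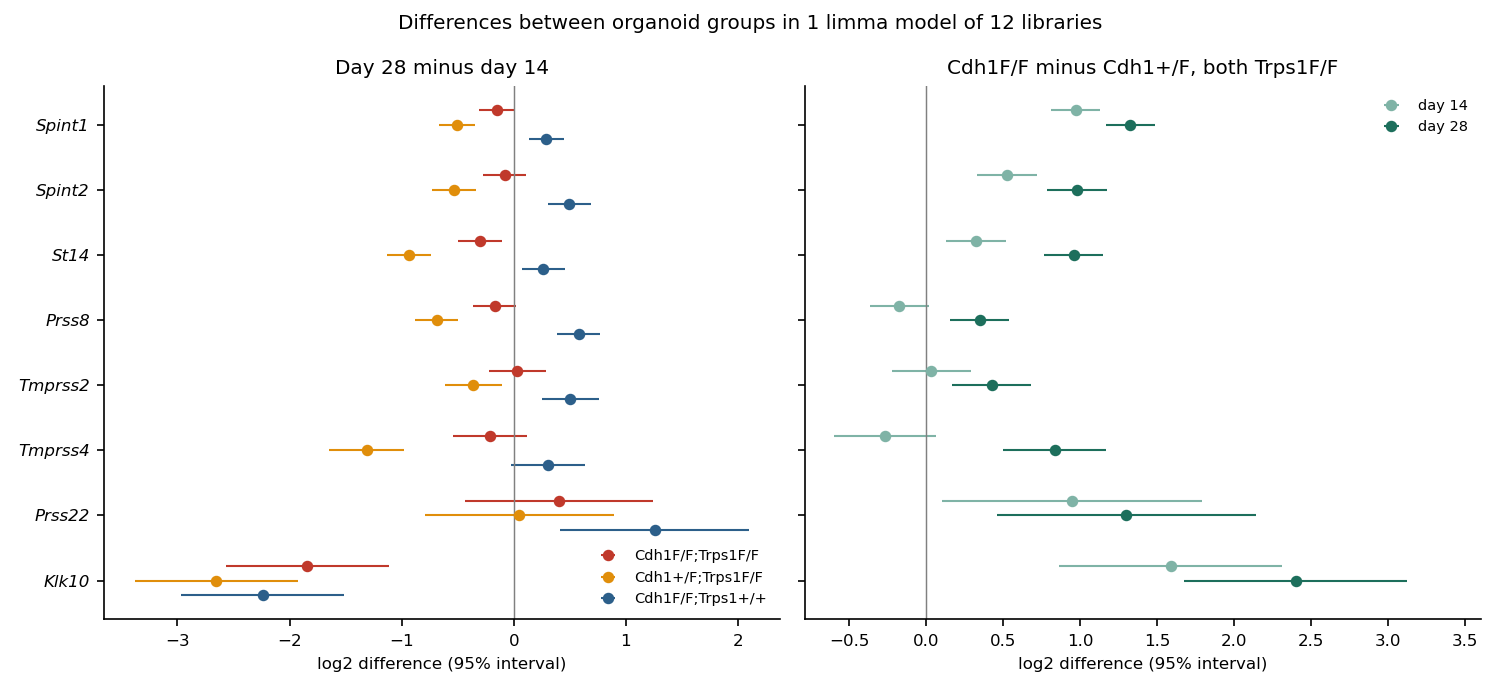
Log2 differences with 95% intervals from 1 limma model of the 12 organoid libraries: day 28 minus day 14 within Cdh1F/F;Trps1F/F (red), Cdh1+/F;Trps1F/F (orange) and Cdh1F/F;Trps1+/+ (blue) on the left, and Cdh1F/F minus Cdh1+/F within Trps1F/F at day 14 and day 28 (light and dark green) on the right. The inhibitors and St14, Prss8 and Tmprss2 lie above 0 with time in Cdh1F/F;Trps1+/+ and below 0 in Cdh1+/F;Trps1F/F, and Klk10 lies below 0 in all 3 genotypes.

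Time in culture was compared within each genotype. Klk10 fell in all 3: it stood at 6.85 and 6.31 at day 28, against 8.28 and 8.56 at day 14, in Cdh1F/F Trps1F/F (log2 difference -1.84, SE 0.334, adjusted p = 0.00141). In Cdh1+/F Trps1F/F it stood at 4.13 and 4.23, against 6.46 and 7.21 (-2.65, adjusted p = 0.000119), and in Trps1+/+ at 7.88 and 7.01, against 9.28 and 10.08 (-2.24, adjusted p = 0.000377). The other members went different ways by genotype.

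In Trps1+/+ 6 members rose and 1 fell from day 14, against 11.1% of genes higher and 14.7% lower. Spint2 (0.50, SE 0.0892, adjusted p = 0.00144), Prss8 (0.58, SE 0.0885, adjusted p = 0.000460), Tmprss2 (0.50, adjusted p = 0.00766), Spint1 (0.29, adjusted p = 0.0113), St14 (0.26, adjusted p = 0.0455) and Prss22 (1.26, adjusted p = 0.0308) rose. The calls of Spint2, Prss8 and Klk10 were also made without each library. Spint1 was lost without day 14 replicate b or day 28 replicate a (adjusted p 0.0561 and 0.0656), St14 and Tmprss2 without replicate a of either day (adjusted p 0.0722 to 0.277), and Prss22 without any 1 library but day 14 replicate b (adjusted p 0.0651 to 0.190). St14 and Prss22 were also lost without the filter on low values (adjusted p 0.0735 and 0.0722). Tmprss4 did not pass (0.31, adjusted p = 0.166). Markers of other cell types fell over the same days: 6 of 8 fibroblast markers tested (median -1.48), 4 of 5 macrophage markers (-1.54) and 4 of 5 endothelial markers (-2.05), while of 12 luminal markers 2 rose and 0 fell (0.09). Their part in the result was not tested.

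In Cdh1+/F Trps1F/F 0 members rose and 7 fell, against 20.5% of genes higher and 20.3% lower. The largest falls after Klk10 were those of Tmprss4 (-1.31, SE 0.154, adjusted p = 7.18e-05) and St14 (-0.93, SE 0.0894, adjusted p = 1.92e-05). Prss8 fell by 0.69, Spint2 by 0.53 and Spint1 by 0.51 (adjusted p = 0.000131, 0.000674 and 0.000256), and Tmprss2 by 0.36 (adjusted p = 0.0279). The call of Tmprss2 was lost without any 1 of the 4 libraries (adjusted p 0.0513 to 0.152), and the other 6 were made without each. Of the 12 luminal markers 10 fell and 0 rose in the same contrast. Of other markers tested 3 of 8 fibroblast (median 0.24), 5 of 5 macrophage and 3 of 5 endothelial markers fell, with 0 rising. By contrast 4 of 4 skeletal muscle markers (median 1.72) and 3 of 3 adipocyte markers (2.44) rose. The part of these markers in the values of the members was not tested.

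In Cdh1F/F Trps1F/F 0 members rose and 2 fell, against 14.8% of genes higher and 20.6% lower. Besides Klk10, St14 fell by 0.30 (adjusted p = 0.0203), a call lost without day 14 replicate 1 (-0.23, adjusted p = 0.163) or day 28 replicate 2 (-0.21, adjusted p = 0.167). Tmprss4, at -0.21 (adjusted p = 0.304), was called without day 28 replicate 2 (-0.52, adjusted p = 0.00889). Neither inhibitor passed, with 95% intervals of -0.31 to 0.00 for Spint1 and -0.27 to 0.11 for Spint2. Here 7 of 8 fibroblast, 4 of 5 macrophage and 3 of 5 endothelial markers fell, and 1 of 12 luminal markers.

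The differences between these time courses were tested as interactions. Between Cdh1F/F Trps1F/F and Trps1+/+, 0 members had a higher and 4 a lower change with time, against 8.22% and 9.72% of genes. The difference of differences was -0.75 for Prss8 (SE 0.125, adjusted p = 0.00244), -0.58 for Spint2 (SE 0.126, adjusted p = 0.00936), -0.57 for St14 (SE 0.126, adjusted p = 0.0106) and -0.45 for Spint1 (SE 0.104, adjusted p = 0.0128). Prss8 alone was called without each library. Without Cdh1F/F Trps1F/F day 14 replicate 1 the other 3 were lost (adjusted p 0.0545 to 0.0762), and St14 also without Trps1+/+ day 14 replicate a (-0.48, adjusted p = 0.0566). Klk10, which fell in both, gave 0.40 (interval -0.62 to 1.43), and Tmprss2 (-0.47) and Tmprss4 (-0.52) did not pass (adjusted p = 0.0679 and 0.115). Tmprss2 passed without Trps1+/+ day 14 replicate b (adjusted p = 0.0192) or day 28 replicate b (0.0479), and Tmprss4 without Cdh1F/F Trps1F/F day 28 replicate 2 (0.00587).

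Between Cdh1F/F and Cdh1+/F, both Trps1F/F, 5 members had a higher and 0 a lower change with time, against 7.43% and 11.7% of genes. This contrast was added after the data were seen. The difference of differences was 1.10 for Tmprss4 (SE 0.217, adjusted p = 0.00349), 0.63 for St14 (SE 0.126, adjusted p = 0.00373), 0.52 for Prss8 (adjusted p = 0.0114), 0.45 for Spint2 (adjusted p = 0.0247) and 0.35 for Spint1 (adjusted p = 0.0318). Tmprss4 and St14 were also called without each library. Prss8 was lost without Cdh1F/F day 14 replicate 2 or Cdh1+/F day 28 replicate a (adjusted p 0.0556 and 0.0570), and each inhibitor without 6 of the 8 libraries (adjusted p 0.0526 to 0.153). Both interactions use the Cdh1F/F Trps1F/F libraries.

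Trps1F/F tumors were compared with Trps1+/+ tumors, with the mouse as the replicate (6 against 3). No member passed, and nor did any other gene: 0 of 15423 genes were called (0% higher and 0% lower), and 805 had an unadjusted p under 0.05. Spint1 ranged from 2.30 to 11.31 over the 8 Trps1F/F tumors (median 7.76), against 3.42, 3.57 and 6.43 in Trps1+/+ tumors (log2 difference 2.52, 95% interval -2.29 to 7.32, adjusted p = 0.805). St14 ranged from 4.30 to 13.41, against 5.54 to 9.62 in Trps1+/+ (1.89, interval -2.97 to 6.75). Klk10 stood nearest to a difference, at -2.95 (interval -5.05 to -0.86, adjusted p = 0.800), with overlapping groups.

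In the 4 tumors of subgroup 1 all 8 members except Tmprss4 and Klk10 were called higher than in the 3 Trps1+/+ tumors. That is 6 members higher and 0 lower, against 8.92% of 15871 genes higher and 6.63% lower, with mice as replicates (3 against 3). The median log2 difference of the 8 was 4.82, against 0.01 over all genes. Tumors of a mouse were averaged within a subgroup.

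Spint1 stood at 11.30, 11.31, 10.88 and 10.51 in subgroup 1, against 6.43, 3.42 and 3.57 in Trps1+/+ tumors (log2 difference 6.63, SE 0.812, limma adjusted p = 0.00225). Spint2 stood at 12.54, 12.84, 12.79 and 12.38, against 10.37, 5.91 and 6.05 in Trps1+/+ (5.21, SE 1.04, adjusted p = 0.0135). Both inhibitors thus varied little within subgroup 1, while 1 of the 3 Trps1+/+ tumors stood well above the others. St14 stood at 12.22, 13.41, 13.15 and 12.56, against 9.62, 5.71 and 5.54 in Trps1+/+ (5.87, SE 1.05, adjusted p = 0.00904). Prss8 stood at 10.09, 10.49, 10.77 and 10.33, against 7.96, 6.31 and 3.57 (4.43, SE 1.13, adjusted p = 0.0332). The protease pair was higher in every subgroup 1 tumor than in every Trps1+/+ tumor, as the inhibitors were.

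Tmprss2 stood at 10.40, 10.55, 10.58 and 10.18 in subgroup 1, against 7.29 in Trps1+/+ replicate 1 and 0 in the other two (log2 difference 8.01, SE 1.77, limma adjusted p = 0.0197). A fitted difference against libraries with 0 reads depends on the pseudocount and is no bound. Prss22 stood at 7.78, 8.20, 8.58 and 4.87, against 5.66, 4.42 and 4.11 in Trps1+/+ (2.84, SE 0.542, adjusted p = 0.0116), so that replicate 5 lay among the Trps1+/+ tumors although its mouse, averaged with replicate 4, did not. Tmprss4 stood at 6.46, 4.85, 7.92 and 1.53, against 5.35, 1.97 and 2.09 (2.21, adjusted p = 0.148). Klk10 stood at 4.49, 5.15, 8.80 and 4.31, against 9.66, 8.72 and 5.92 (-2.70, adjusted p = 0.121). In Prss22, Tmprss4 and Klk10 the tumors of subgroup 1 differed among themselves more than in the inhibitors and St14.

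The calls of Spint1 and St14 were also made without each tumor in turn. Spint2 was lost without Trps1+/+ replicate 3 (4.51, adjusted p = 0.0507), and Prss22 without Trps1F/F replicate 4 (2.22, adjusted p = 0.116) or with each tumor taken as a replicate (2.63, adjusted p = 0.0546). Prss8 and Tmprss2 were each lost without Trps1F/F replicate 2 or 3 or Trps1+/+ replicate 2 or 3 (adjusted p 0.0767 to 0.0931 and 0.0559 to 0.0720). Tmprss4 was called without Trps1+/+ replicate 1 (3.31, adjusted p = 0.0183), and Klk10 without Trps1+/+ replicate 3 (-3.79, adjusted p = 0.0476).

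Markers of luminal cells moved with these values. Normalized counts of the 12 markers summed to 73684 to 125413 in subgroup 1, against 9923 to 35735 in Trps1+/+. Among the Trps1+/+ tumors replicate 1, the highest in both inhibitors, was also the highest in this sum. Replicate 2 had a higher sum than replicate 3 (19455 against 9923) but lower Spint1 and Spint2. Of the 12 markers, 7 were called higher and 0 lower in subgroup 1 (median 6.26). Fibroblast markers summed to 79216 to 621506 in subgroup 1, against 391043 to 1101721 in Trps1+/+, and macrophage markers to 11738 to 16603, against 33587 to 49063. The part of these shifts in the values of the members was not tested. Squamous markers summed to 124448 in Trps1F/F replicate 4 and to 40.0 to 277 in the other tumors, and that replicate held the highest Klk10, Tmprss4 and Prss22 among the Trps1F/F tumors.

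In subgroups 2 and 3 no member passed against Trps1+/+ tumors, and 0% and 0.0063% of genes were called higher and 0% lower. At an unadjusted p under 0.05 stood 2103 genes for subgroup 2 and 957 for subgroup 3 (limma). Spint1 stood at 3.61 and 2.30 in subgroup 2 and at 3.76 and 5.01 in subgroup 3, against 6.43, 3.42 and 3.57 in Trps1+/+. Spint2 stood at 5.41 and 5.62 in subgroup 2 and at 5.93 and 6.85 in subgroup 3, against 10.37, 5.91 and 6.05. St14 stood at 5.89 and 4.30 in subgroup 2 and at 7.59 and 6.15 in subgroup 3, against 9.62, 5.71 and 5.54. All 4 of these tumors were far below subgroup 1 in the inhibitors and in St14. Their luminal marker sums were 11142 to 25804 in subgroup 2 and 1788 to 23225 in subgroup 3.

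Tumors of 1 mouse spanned this range. Replicates 4 and 5 held Spint1 at 10.88 and 10.51, and replicate 6 of the same mouse held it at 3.76. Spint2 was 12.79 and 12.38 in replicates 4 and 5 and 5.93 in replicate 6, St14 was 13.15 and 12.56 and then 7.59, and Prss8 was 10.77 and 10.33 and then 1.04. Tmprss2 was 10.58 and 10.18 in replicates 4 and 5 and 0 in replicate 6. With 1 mouse, this has no replicate and no test. The luminal sum was 117990 and 73684 in replicates 4 and 5 and 23225 in replicate 6.

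**Figure D4:**
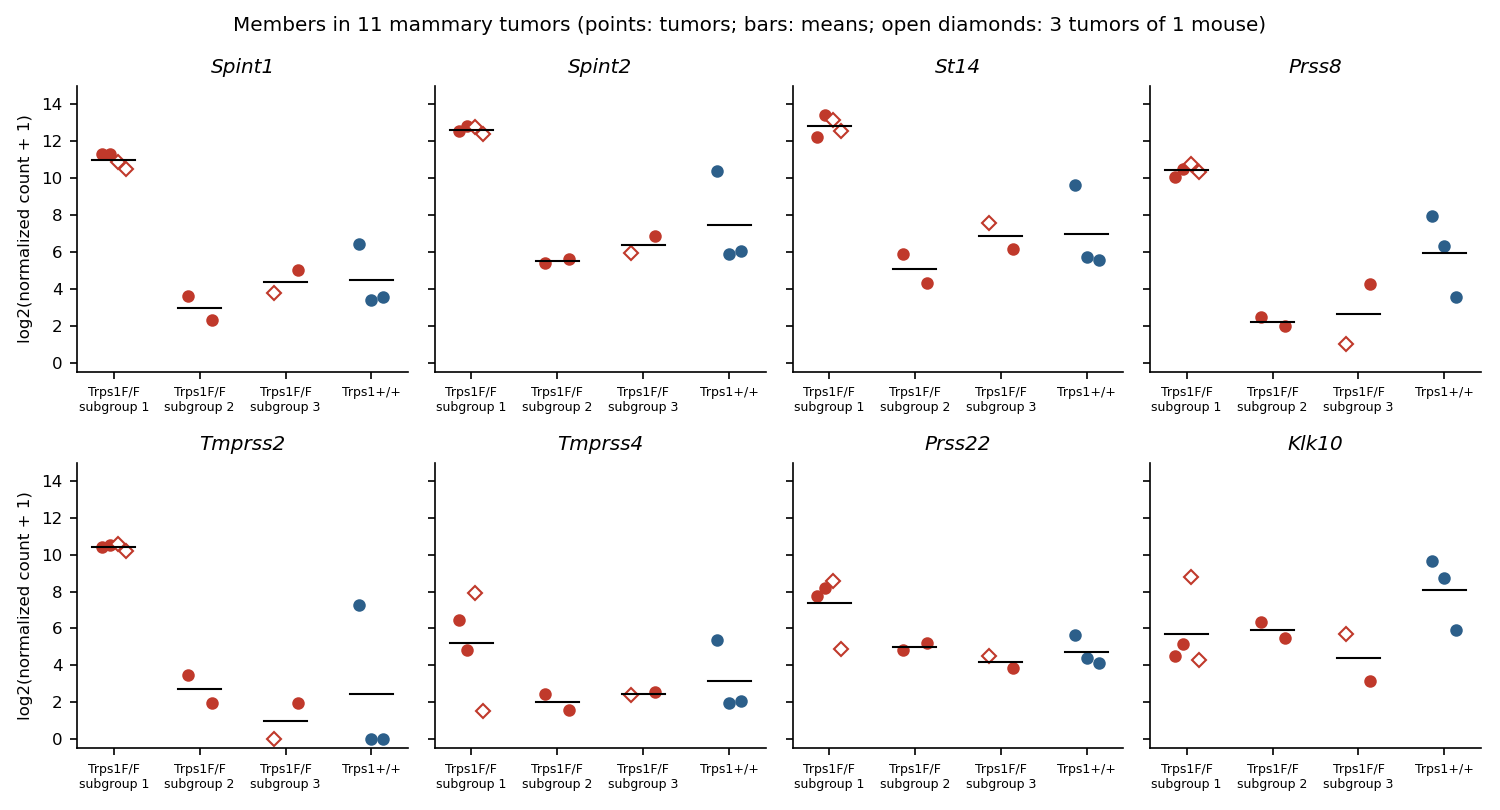
Log2(normalized count + 1) of the 8 members in each tumor: Trps1F/F tumors by labelled subgroup, left of the 3 Trps1+/+ tumors, with points for tumors, bars for means and open diamonds for the 3 tumors of 1 mouse. Spint1, Spint2, St14, Prss8 and Tmprss2 lie above every other tumor in all 4 tumors of subgroup 1, and of the Trps1+/+ tumors 1 lies between the sets, or 2 for Prss8.

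In subgroup 1, 4 of 25 other epithelial serine proteases tested rose and 2 fell (median -0.54, against 0.01 over all genes). Hpn, which encodes hepsin, a membrane protease also inhibited by HAI-1 and HAI-2, was higher by 4.85 (adjusted p = 0.000678) and Tmprss13 by 6.82 (adjusted p = 0.00990), while Htra1 fell by 3.32 (adjusted p = 0.00275). Of 15 substrates and partners 6 rose and 1 fell. Scnn1a and Scnn1g, which encode subunits of the epithelial sodium channel, were higher by 3.77 and 3.72 (adjusted p = 0.00845 and 0.0122). Of 15 other inhibitors 1 rose (Wfdc2, 3.33, adjusted p = 0.0219) and 1 fell.

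In normalized counts per kilobase, the order of the mean levels was not the same in each set of tumors. In subgroup 1 Spint2 averaged 1409, St14 1008, Spint1 759 and Prss8 751. The range of St14 (627 to 1426) held the means of Spint1 and Prss8, so their order is not set beyond their spread. Tmprss2 (189), Prss22 (174), Klk10 (94.7) and Tmprss4 (34.5) followed. Klk10 averaged highest of the 8 in the other sets. It stood at 45.2 in subgroup 2, followed by Prss22 at 23.9 and Spint2 at 9.85, and at 21.6 in subgroup 3, where its range of 5.68 to 37.5 held the means of Spint2 (19.1) and St14 (17.1). In Trps1+/+ tumors Klk10 averaged 312, with a range of 43.5 to 587, and Spint2 averaged 106, with a highest of 291, so their order is not set beyond the spread there either.

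The balance of inhibitor and protease was taken as the log2 value of Spint1 minus that of St14, without division by length, so that only differences between groups are read. It averaged -1.84 ± 0.0691 in TSA and -1.78 ± 0.128 in DMSO (SD, n = 3 each), a difference of -0.07 (two-sided exact permutation p = 0.400, smallest possible 0.100). In sgTrps1 cells it averaged -0.35 and in sgScr cells -0.69, a difference of 0.34 with no overlap (exact permutation p = 0.333, which is the smallest possible). Trps1F/F tumors averaged -1.86 ± 0.688 over 6 mice and Trps1+/+ tumors -2.49 ± 0.634 over 3 mice (SD), a difference of 0.63 (two-sided exact permutation p = 0.214, smallest possible 0.0119). Of these 3 tests of one family only that of the tumors could reach 0.05, and it did not.

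In organoids the balance was -1.21 at day 14 and -1.06 at day 28 in Cdh1F/F Trps1F/F, -1.86 and -1.43 in Cdh1+/F Trps1F/F, and -1.13 and -1.10 in Trps1+/+. Both Cdh1+/F Trps1F/F days lay below the other genotypes. With 2 libraries a group the smallest exact p is 0.333, so no test is given. Although Spint1 and St14 each spanned over 9 log2 units across tumors, their balance spanned -3.82 to -0.92.

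**Figure D5:**
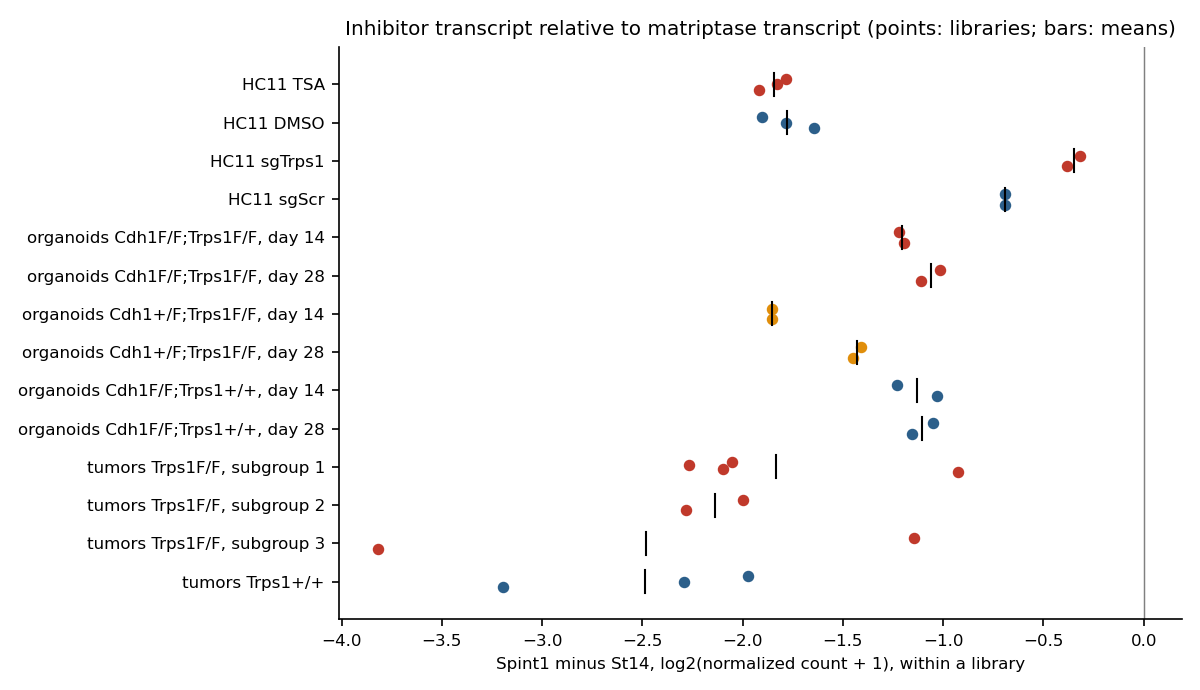
Log2 value of Spint1 minus that of St14 in every library, by group from top to bottom, with TSA, sgTrps1 and Trps1F/F groups above their controls; points are libraries and bars are means. The value is below 0 in every library, and Cdh1+/F;Trps1F/F organoids lie below the other organoids.

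Genes with the pattern most like those of St14 and Spint1 were ranked by the root mean square difference of their log2 values after each gene was centred on its mean. Over 12 organoid libraries and 14102 genes, the closest to Spint1 was Sh3tc2 (0.0691), followed by Synpo (0.0844), and of the other members Spint2 stood at rank 107, St14 at rank 338 and Prss8 at rank 5091. The closest to St14 was Ccdc120 (0.0944), with Spint1 at rank 683, Prss8 at rank 738 and Spint2 at rank 787. Over 11 tumors and 13997 genes, the closest to St14 were Esrp2, a splicing regulator of epithelial cells (0.561), and Grin1os (0.611), with Spint1 at rank 7, Spint2 at rank 9 and Prss8 at rank 241. The closest to Spint1 was Camsap3 (0.482), with Spint2 at rank 15, St14 at rank 17 and Prss8 at rank 163. Klk10 stood last of the members in all 4 rankings, at ranks 12353 to 12973. These ranks describe the libraries and carry no test.

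The authors' deposited tables of comparisons gave an adjusted p under 0.05 for 7 of 8 members in TSA (2 positive), 6 of 8 at day 14 (5 positive) and 4 of 8 at day 28 (3 positive) in Cdh1F/F Trps1F/F organoids against Trps1+/+. In tumors the authors' deposited tables gave such a p for 5 of 7 members with a value in subgroup 1 (all positive), 2 of 7 in subgroup 2 (0 positive) and 0 of 7 in subgroup 3. The 2 in subgroup 2 were Prss8 (-4.93, authors' adjusted p = 0.00201) and Spint2 (-3.43, authors' adjusted p = 0.0269), neither of which passed with limma. In the authors' deposited table of the guides 3 of 7 passed, with sgScr over sgTrps1 as its direction, so that its 2 positive values are lower in sgTrps1. The share of all genes that passed in the authors' comparisons was not taken, so these counts have no background beside them. They come from the same libraries and are no independent support.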

How the data were processed

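Expression was measured by RNA-seq in HC11 cells, organoids and tumors. The authors aligned reads with TopHat to GRCm38 and counted them with HTSeq, per the submitters' processing notes; no source used here gives versions, annotation or strand use. The authors deposited 4 tables of log2(normalized count + 1), 1 per experiment, each normalized on its own. Every value was a multiple of whole reads with 1 factor for each library (tolerance 0.01 reads or a share of 1e-05), which gave the depth of each library. The authors' deposited tables of comparisons hold log2 fold changes and p-values. Symbols turned into dates (14 per table) were dropped, and a row with no name held at most 1.31e-05% of a library.

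Genes with a normalized count + 1 of at least 10 in as many libraries as the smallest group were tested with limma 3.58.1 (R 4.3.3; trended empirical Bayes, Benjamini-Hochberg over all genes kept, called at an adjusted p under 0.05, 95% intervals); all fold changes are on the log2(value + 1) scale, which understates changes of low genes. Organoids were fitted in 1 model of 12 libraries. Tumors of a mouse were averaged. Among the 12 organoid columns 8 share a header with another, so those replicates are called a and b. The limma fit was tested on simulated data. For no comparison was the share of all genes with groups that did not overlap taken. Alternatives were quantile normalization, a common median, no filter, a pseudocount of 8, voom on the recovered reads, each tumor as a replicate, a replicate block and leaving out each library. The members and gene lists were chosen with earlier results of these data known; list genes named in the text are among those with the smallest p of a list, some of which are not reported here, and members are all named. Promoters are RefSeq sequences (GRCm38.p6), matched for 4 of 8 members. Replicate libraries always exceeded sampling noise (chi-square per degree of freedom 1.56 or more), so none was merged.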

Additional observations from a re-analysis of the deposited data

Results flagged for a closer look

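A change with time that differed between genotypes was found for several members by the interaction test of the organoid model (limma, Benjamini-Hochberg over 15860 genes). Between Cdh1F/F Trps1F/F and Trps1+/+ organoids the change from day 14 to day 28 differed by -0.45 for Spint1 (adjusted p = 0.0128), -0.58 for Spint2 (0.00936), -0.57 for St14 (0.0106) and -0.75 for Prss8 (0.00244), on the log2 scale. All 4 rose with time in Trps1+/+, while in Cdh1F/F Trps1F/F only St14 passed, and it fell. Between Cdh1F/F and Cdh1+/F, both Trps1F/F, the change differed by 0.35 for Spint1 (adjusted p = 0.0318), 0.45 for Spint2 (0.0247), 0.63 for St14 (0.00373), 0.52 for Prss8 (0.0114) and 1.10 for Tmprss4 (0.00349). All 5 fell with time in Cdh1+/F. The second contrast was added after the data were seen. Of all genes, 8.22% had a higher and 9.72% a lower change in the first contrast, and 7.43% and 11.7% in the second. Without 1 library the first set of calls came to 1 to 5 members and the second to 2 to 5. Over all genes they then came to 1049 to 3433 and 1961 to 2829. In Cdh1+/F 10 of 12 luminal markers fell over the same days, while 4 of 4 skeletal muscle and 3 of 3 adipocyte markers rose. The part of these markers in the result was not tested.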

How the results depend on the processing

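Of the member values recomputed under every alternative, 1316 kept direction and side of the threshold, 34 changed sign (none of them past the threshold in the main analysis), 77 lost and 14 gained a call. Sign changes outside the left-out libraries were those of Prss22 between Cdh1F/F Trps1F/F and Trps1+/+ at day 14 (0.12 after quantile normalization, against -0.27) and over time in Cdh1+/F (-0.054 after quantile normalization and -0.0076 with voom, against 0.05), and of Tmprss2 in subgroup 2 (-0.63 with a pseudocount of 8, against 0.30). At day 28, 3 members were called after quantile normalization, against 5. With a pseudocount of 8, 1 gene was called in subgroup 2, against 0. Genes called in subgroup 3 came to 2 with a pseudocount of 8, 2 after quantile normalization, 0 with voom and 3 with each tumor a replicate, against 1. The cause was not tested.

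Without each library in turn, the genes called were 3330 to 4300 for Cdh1F/F Trps1F/F against Trps1+/+ at day 14 (main 5145) and 3745 to 5035 for Cdh1+/F Trps1F/F against Trps1+/+ at day 14 (5755). With time they were 2851 to 5672 in Cdh1F/F Trps1F/F (5613), 3780 to 5090 in Cdh1+/F (6466) and 2366 to 3043 in Trps1+/+ (4104). Interactions gave 1049 to 3433 by Trps1 (2845) and 1961 to 2829 by Cdh1 (3038). Tumors gave 0 to 1 by genotype, 1119 to 2472 in subgroup 1 (2467), 0 to 13 in subgroup 2 and 0 to 25 in subgroup 3. Members called were 3 to 4 at day 28 by Trps1 (5), 1 to 2 with time in Cdh1F/F Trps1F/F, 3 to 6 in Trps1+/+ (7), 1 to 5 in the Trps1 interaction (4) and 2 to 5 in the Cdh1 interaction (5).

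Values that changed sign without 1 library ranged from -0.095 to 0.011 for St14 with sgTrps1, from -0.62 to 0.076 for Prss22 between Cdh1F/F Trps1F/F and Trps1+/+ at day 14, and, for Cdh1+/F Trps1F/F against Trps1+/+, from -0.21 to 0.0020 for Spint2 and -0.11 to 0.0011 for Tmprss4 at day 14 and from -0.043 to 0.20 for Tmprss2 at day 28. With time they ranged from -0.28 to 0.38 for Prss22 in Cdh1+/F, and from -0.026 to 0.089 for Tmprss2 and -0.52 to 0.10 for Tmprss4 in Cdh1F/F Trps1F/F. Klk10 ranged from -0.036 to 0.84 in the Trps1 interaction. In tumors Prss8 ranged from -1.02 to 1.17 and Tmprss4 from -0.084 to 1.61 by genotype. In subgroup 2 Prss22 ranged from -0.025 to 0.75 and Tmprss2 from -0.92 to 2.73. In subgroup 3 the ranges were -0.71 to 0.89 for Spint1, -1.82 to 0.41 for Spint2, -0.81 to 1.24 for St14, -2.66 to 0.99 for Tmprss2 and -1.26 to 0.44 for Tmprss4.

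Same-numbered libraries did not deviate together (r = -0.19 for the guides). With 2 libraries a group the crossed pairs must give the same r with the other sign (0.19). Such an r cannot show whether same-numbered libraries share more than a number. With the replicate block, 7 members and 10979 genes were called in TSA (main 7 and 11103), 3 and 8255 with the guides (3 and 8413; 3 and 8814 with the pairs crossed, an alternative chosen after seeing the data), and 2 and 6328 with time in Cdh1F/F Trps1F/F (2 and 5613). Counting error was largest where reads were few: 0 to 2 a library for Tmprss2 in HC11 cells, and as few as 6 for Prss22 in organoids.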
